A study of Mus musculus with 6 samples.

Results

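The genes described here are 8 genes of the MHC class II presentation pathway: H2-Aa, H2-Ab1, H2-Eb1, Cd74, Ciita, Ctss, H2-DMa and H2-DMb1. They were taken by symbol from a table of 43629 mouse genes, and all 8 were present. RNA came from subcutaneous B16F10 melanomas, a mouse tumour line of C57BL/6 origin, grown in female C57BL/6J mice that were 8 weeks old at injection. Tumours of each treatment were pooled, so there was 1 library for each of 6 treatments and no replicate of any of them. The design crossed 3 inhibitor arms with 2 antibodies. AZD5363, an AKT inhibitor, and MK1775, a WEE1 inhibitor, were given together, either with an antibody against PD-1 (AZD5363+MK1775+anti-PD-1, the triple-agent pool) or with control IgG (AZD5363+MK1775). KS100, an aldehyde dehydrogenase inhibitor, was likewise given with anti-PD-1 (KS100+anti-PD-1) or with control IgG (KS100). The other two pools received the DMSO vehicle, with anti-PD-1 (the anti-PD-1 pool) or with control IgG (the control pool). All tumours were taken when those of the control mice had grown to 2000 mm3. The question behind the design, from the series title, was how these inhibitors act on melanoma when joined to PD-1 blockade.

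MHC class II molecules present peptides from endocytosed protein to CD4+ T cells. An alpha and a beta chain assemble in the endoplasmic reticulum around the invariant chain, encoded by Cd74. Cathepsin S then trims the invariant chain in endosomes, and H2-DM exchanges the remaining fragment for peptide. Ciita is the master coactivator of these genes. It is switched on by interferon-gamma in many cells and is constitutive in dendritic cells and B cells, and macrophages raise it on activation. C57BL/6 mice carry an H2b haplotype in which the Ea gene is defective, so that the Eb1 chain lacks its partner and only I-A reaches the surface.

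Depth limits what each pool can show. Totals were 338474 counts in the triple-agent pool, 25521 in KS100+anti-PD-1, 26639 in AZD5363+MK1775, 44748 in KS100, 1002088 in anti-PD-1 and 1591673 in control, a range of 62.4-fold. A count of 0 allows up to 3 counts, which is 8.86 counts per 1000000 counts (CPM) in the triple-agent pool whereas for the KS100+anti-PD-1, AZD5363+MK1775 and KS100 pools it is 118, 113 and 67.0 CPM. In the anti-PD-1 and control pools the same limit is 2.99 and 1.88 CPM. All intervals and limits given here cover counting error only, not the spread between tumours, and no interval says how another pool of the same treatment would compare. The 4 inhibitor pools also differed in what else they held. Mitochondrial genes took 19.8% of counts in the triple-agent pool, 14.6% in KS100+anti-PD-1, 13.2% in AZD5363+MK1775 and 17.1% in KS100, against 1.29% in anti-PD-1 and 1.89% in control. The share of 3 genes counted with ribosomal RNA (Gm42418, mt-Rnr1, mt-Rnr2) was 27.4% in the triple-agent pool, against at most 5.01% elsewhere. Of 8742 protein-coding genes at 0 in both vehicle pools, 7.02% had a count in the triple-agent pool, 14.2% in KS100+anti-PD-1, 1.74% in AZD5363+MK1775 and 11.6% in KS100. The part of these differences in the results below was not tested. The tumour label matched its markers: all 8 melanocyte markers were counted in the control pool.

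Most of the 8 genes lie in the MHC region of chromosome 17 (GRCm38, GENCODE M21, positions counted from 1). H2-DMa is at chr17:34119541-34139101 on the plus strand and H2-DMb1 at chr17:34153072-34160230, also plus. H2-Ab1 is at chr17:34257689-34269419 (plus), H2-Aa at chr17:34282744-34287823 (minus) and H2-Eb1 at chr17:34305867-34316674 (plus). Outside the region, Ciita is at chr16:10480059-10528418 and Ctss at chr3:95526786-95556403, both on the plus strand. The libraries were made from transcript 3′ ends, so a count stands for a transcript end rather than for coverage along the gene. Exons of Ciita overlap those of Dexi on the opposite strand over 329 bases, and exons of H2-DMa overlap those of Brd2 over 360 bases, in neither case near the 3′ end of the member. The strand setting of the counting is not given in the sources used here. Dexi had 2 counts in the triple-agent pool and 105 in control, the opposite order to Ciita. H2-DMb1 has a close paralogue, H2-DMb2, so reads of either could have been dropped or misplaced.

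Class II promoters are known for a conserved upstream module in which an X2 box bound by CREB family proteins is followed by a Y box bound by NF-Y, the platform on which Ciita acts. RefSeq promoter windows (GRCm38, 250 bases before to 50 after a gene start) were matched for 5 of the members, and the part upstream of the start was searched on both strands for the X2-type cores TGACG and TGATG and the Y box core ATTGG. Among 32851 such windows, 46.9% held an X2-type core and 33.8% a Y box core on either strand, while 1.07% held an X2-type core followed by a Y box core within 30 bases on the gene's strand. That ordered pair was found for H2-Aa, H2-Eb1 and H2-DMb1, and also for the paralogue H2-DMb2. No such pair was in the windows of Ctss or H2-DMa. The 4 stretches are shown because these genes share the arrangement while their counts differ, with the cores in capitals and each read 5′ to 3′ on the gene's strand. They are H2-Aa at chr17:34287859-34287912 (minus), H2-Eb1 at chr17:34305766-34305820 (plus), H2-DMb1 at chr17:34153105-34153134 (plus) and H2-DMb2 at chr17:34145119-34145171 (plus).
H2-Aa: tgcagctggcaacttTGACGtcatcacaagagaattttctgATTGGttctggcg
H2-Eb1: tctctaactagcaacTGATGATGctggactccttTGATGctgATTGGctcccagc
H2-DMb1: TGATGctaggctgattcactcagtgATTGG
H2-DMb2: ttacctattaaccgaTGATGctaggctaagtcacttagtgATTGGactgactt
The cores lie 21 bases apart in H2-Aa and 20 bases apart in both H2-DMb1 and H2-DMb2. The H2-DMb1 stretch is limited to 30 bases because it lies before the RefSeq start but inside an exon of the GENCODE model, and a second X2-type core that overlaps the first, 3 bases further upstream, is not shown. H2-Eb1 has 3 X2-type cores ahead of its Y box, the nearest 3 bases from it. A match of letters is a description and does not show that a factor binds there.

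The class II genes were counted almost entirely in 3 of the 6 pools, and their share was highest in the triple-agent pool. Summed over the 8 genes, 503 counts fell in the triple-agent pool, 5 in KS100+anti-PD-1, 0 in AZD5363+MK1775, 1 in KS100, 199 in anti-PD-1 and 258 in control. The summed level was 1486 CPM (95% interval 1359 to 1622) in the triple-agent pool, against 199 CPM (172 to 228) in anti-PD-1 and 162 CPM (143 to 183) in control. The interval of the triple-agent pool lies above both vehicle pools, whose own intervals overlap. The KS100+anti-PD-1 pool gave 196 CPM with an interval of 63.6 to 457 CPM, and KS100 gave 22.3 CPM with an interval of 0.566 to 125 CPM. All 8 genes had a count in the triple-agent pool, 4 in KS100+anti-PD-1, 0 in AZD5363+MK1775, 1 in KS100 and 7 in each of the anti-PD-1 and control pools. In tissue RNA of this kind, fewer cells of a type and less RNA per cell cannot be told apart.

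**Figure D1:**
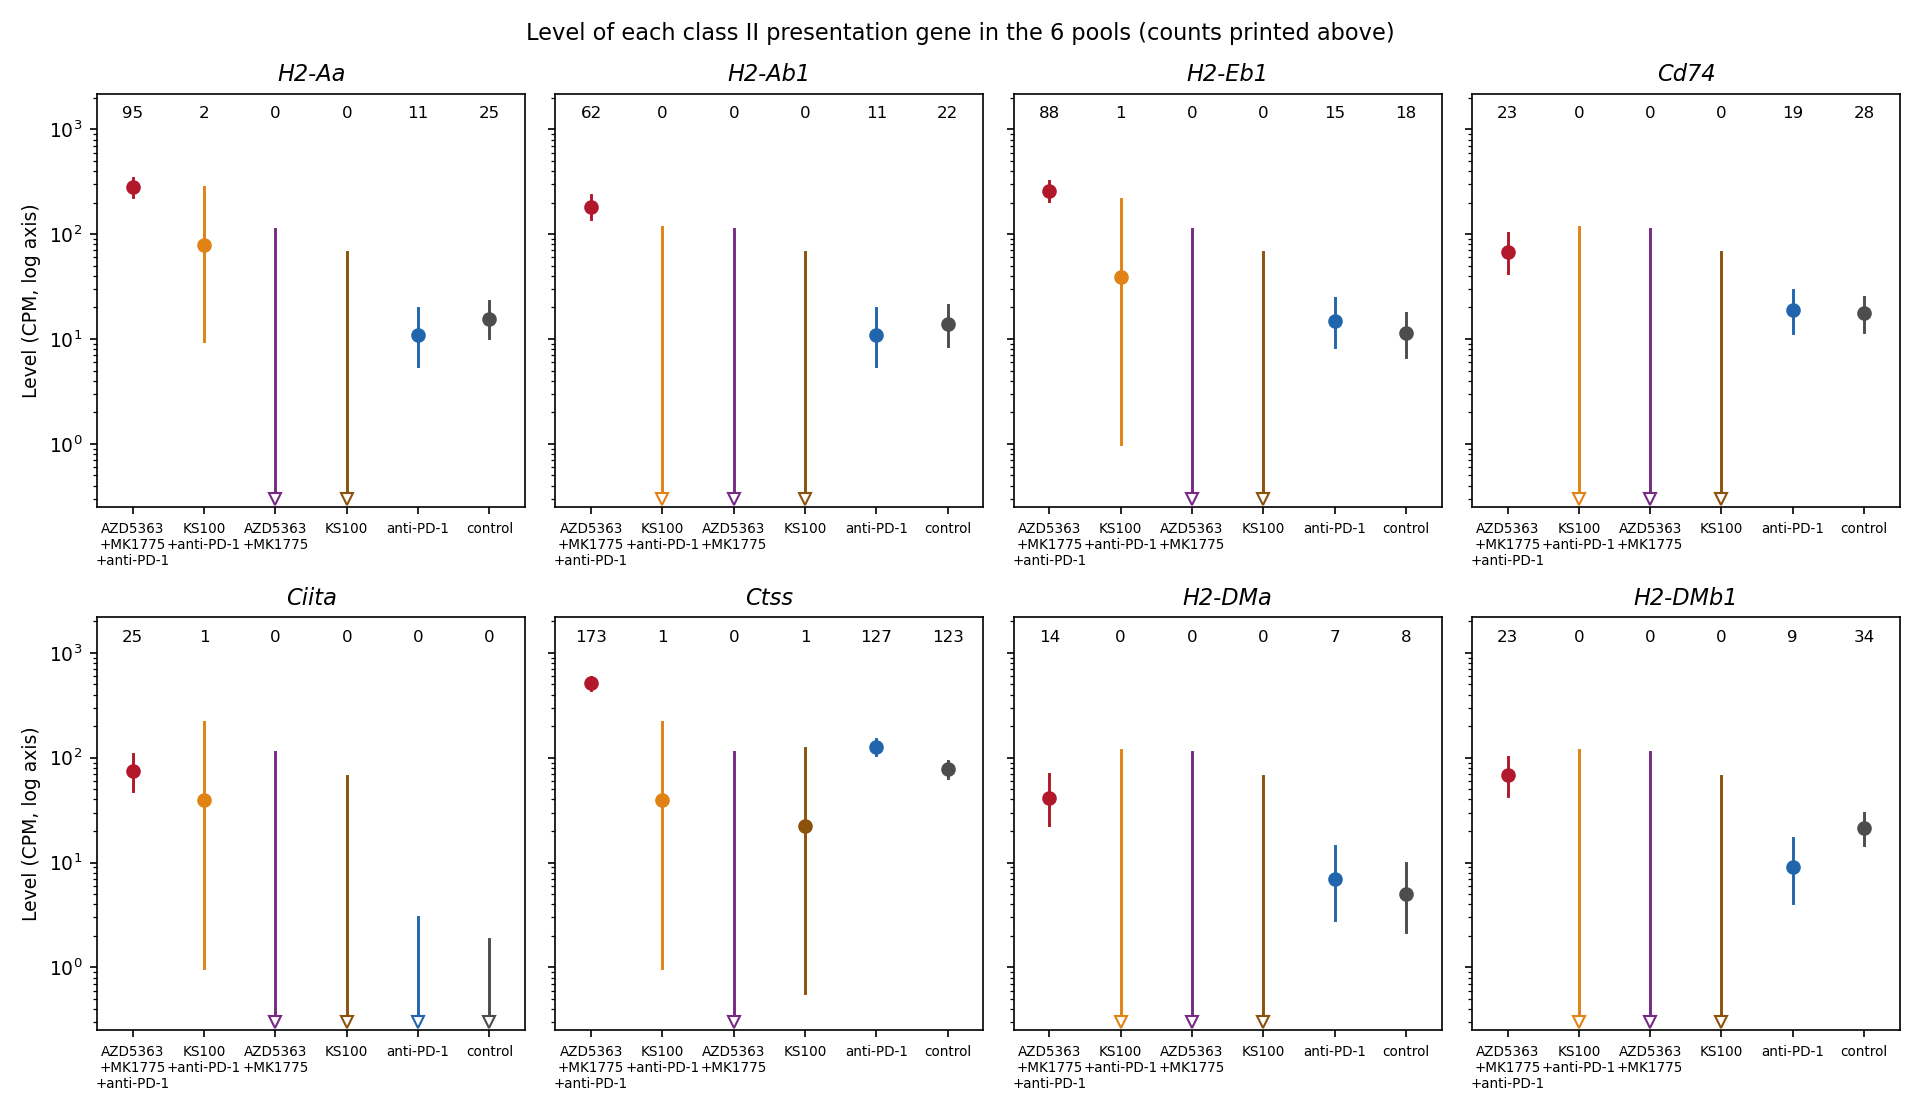
Levels in CPM (log axis) of each of the 8 class II genes in the 6 pools, 1 library each, with 95% Poisson intervals for counting error. Open triangles at the foot mark pools with 0 counts, with a line up to the 3-count limit, and the numbers are raw counts; every gene is highest by point estimate in the triple-agent pool.

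The 3 genes of the peptide-binding chains had the widest gaps among the members that were counted in the vehicle pools. H2-Aa, the I-A alpha chain, had 95 counts in the triple-agent pool, 2 in KS100+anti-PD-1, 0 in both AZD5363+MK1775 and KS100, 11 in anti-PD-1 and 25 in control. This is 281 CPM (227 to 343) in the triple-agent pool, 11.0 CPM (5.48 to 19.6) in anti-PD-1 and 15.7 CPM (10.2 to 23.2) in control. The triple-agent pool stood apart from both vehicle pools, which overlap each other. The 2 counts in KS100+anti-PD-1 are worth 78.4 CPM, with an interval of 9.49 to 283 CPM that reaches both levels.

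H2-Ab1, the I-A beta chain that pairs with H2-Aa, had 62 counts in the triple-agent pool, 11 in anti-PD-1, 22 in control and 0 in the other three. Its level was 183 CPM (140.4 to 235) in the triple-agent pool, 11.0 CPM in anti-PD-1 and 13.8 CPM (8.66 to 20.9) in control. H2-Eb1, the I-E beta chain, had 88 counts in the triple-agent pool, 1 in KS100+anti-PD-1, 0 in AZD5363+MK1775 and KS100, 15 in anti-PD-1 and 18 in control. Both beta chains therefore showed the order of H2-Aa, with the triple-agent pool above 2 overlapping vehicle pools. For H2-Eb1 these levels were 260.0 CPM (209 to 320.3), 15.0 CPM (8.38 to 24.7) and 11.3 CPM (6.70 to 17.9) in the triple-agent, anti-PD-1 and control pools. Its RNA was thus counted in a strain whose I-E alpha partner is defective.

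Ciita, the coactivator, was counted in the triple-agent pool, where it had 25 counts or 73.9 CPM (47.8 to 109). It had 1 count in KS100+anti-PD-1 and 0 in AZD5363+MK1775, KS100, anti-PD-1 and control. In the anti-PD-1 and control pools a count of 0 allows no more than 2.99 and 1.88 CPM, so the level there was below that of the triple-agent pool. In the AZD5363+MK1775, KS100 and KS100+anti-PD-1 pools the depth does not separate absence from a level like that of the triple-agent pool.

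Among the genes that act on assembled class II molecules, Cd74, whose invariant chain blocks the groove and directs the complex to endosomes, lies on the plus strand of chromosome 18 (60803848 to 60812652). It had 23 counts in the triple-agent pool, 19 in anti-PD-1, 28 in control and 0 in the other three. That is 68.0 CPM (43.1 to 102) in the triple-agent pool, 19.0 CPM (11.4 to 29.6) in anti-PD-1 and 17.6 CPM (11.7 to 25.4) in control. The triple-agent pool was again highest, by a smaller step than for the chains. Ctss, the protease that trims the invariant chain, gave 173 counts in the triple-agent pool, 1 each in KS100+anti-PD-1 and KS100, 0 in AZD5363+MK1775, 127 in anti-PD-1 and 123 in control. Its level was 511 CPM (438 to 593) in the triple-agent pool, 127 CPM (106 to 151) in anti-PD-1 and 77.3 CPM (64.2 to 92.2) in control. Ctss was the 1 member whose intervals separated all 3 of these pools.

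The H2-DM pair, which edits the bound peptide, was counted in the 3 deepest pools. H2-DMa had 14 counts or 41.4 CPM (22.6 to 69.4) in the triple-agent pool, 7 counts or 6.99 CPM (2.81 to 14.4) in anti-PD-1 and 8 counts or 5.03 CPM (2.17 to 9.90) in control. H2-DMb1 had 23 counts or 68.0 CPM (43.1 to 102) in the triple-agent pool, 9 counts or 8.98 CPM (4.11 to 17.0) in anti-PD-1 and 34 counts or 21.4 CPM (14.8 to 29.9) in control. For both genes the triple-agent pool lies above the vehicle pools, whose intervals overlap. Neither gene had a count in KS100+anti-PD-1, AZD5363+MK1775 or KS100. The paralogue H2-DMb2 had 3 counts in the triple-agent pool and 0 elsewhere.

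Pairs of pools were compared by the ratio of counts after TMM scaling, with a 95% exact conditional interval. With 1 pool on each side there is no test and no p-value. A gene was called higher or lower where it had at least 20 counts in 1 of the pools, differed at least 2-fold and had an interval wholly beyond 1.5-fold. In AZD5363+MK1775+anti-PD-1 against control, 7 of the 7 members with enough counts were called higher and 0 lower, where the rule called 14.9% of all 8059 genes tested higher and 8.02% lower. H2-Eb1 (18 counts in control) and Ciita (0) had enough counts only in the triple-agent pool. That pool is smaller after scaling, so a gene that enters in this way is always called higher, and these calls were fixed on entry. H2-Aa, H2-Ab1, Cd74, Ctss and H2-DMb1 had at least 20 counts in control. The median log2 ratio of the 7 members was 4.22, against -0.01 over all genes, and stayed at 4.22 with Ciita set at its lower bound. H2-Eb1 was 37.1-fold higher (22.2 to 65.5), H2-Aa 28.9-fold (18.4 to 46.8) and H2-Ab1 21.4-fold (13.0 to 36.6). Ciita was at least 63.3-fold higher, taking 3 counts for the 0 in control and its 25 counts in the triple-agent pool as exact. With counting error on both sides its 95% lower limit was 47.8. Every other value given as at least some fold, or as a bound, was reached in this way. The ratio was 10.7 (8.43 to 13.6) for Ctss, 6.24 (3.43 to 11.2) for Cd74 and 5.14 (2.89 to 8.98) for H2-DMb1. The intervals of the 3 chains overlap one another and lie above those of Cd74 and H2-DMb1. H2-DMa, with too few counts for the rule, had a ratio of 13.3 (5.20 to 36.6). The summed members were 14.8-fold higher (12.7 to 17.3), or 18.6-fold (15.2 to 22.9) without Ctss. Scaled by library totals instead, the summed ratio was 9.17 and all 7 members were still called higher.

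Adding the inhibitors to anti-PD-1 gave the same count. In AZD5363+MK1775+anti-PD-1 against anti-PD-1, 7 of 7 members were called higher, where 14.0% of all genes tested were called higher and 8.11% lower, and their median log2 ratio was 4.43, against -0.05 over all genes. Of these members only Ctss, with 127 counts, had at least 20 in the anti-PD-1 pool. The others had enough counts only in the triple-agent pool, so their calls were fixed on entry to the rule. H2-Aa was 42.5-fold higher (22.7 to 88.0), H2-Eb1 28.9-fold (16.6 to 53.7) and H2-Ab1 27.7-fold (14.5 to 58.4). H2-DMb1 was 12.6-fold higher (5.60 to 30.9), Ctss 6.70-fold (5.30 to 8.49), Cd74 5.95-fold (3.10 to 11.6) and Ciita at least 41.0-fold. The intervals of the chains lie above those of Cd74 and Ctss and overlap that of H2-DMb1. The summed ratio was 12.4 (10.5 to 14.7). This comparison shares its AZD5363+MK1775+anti-PD-1 pool with the one against control, so the likeness of the 2 is not independent.

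**Figure D2:**
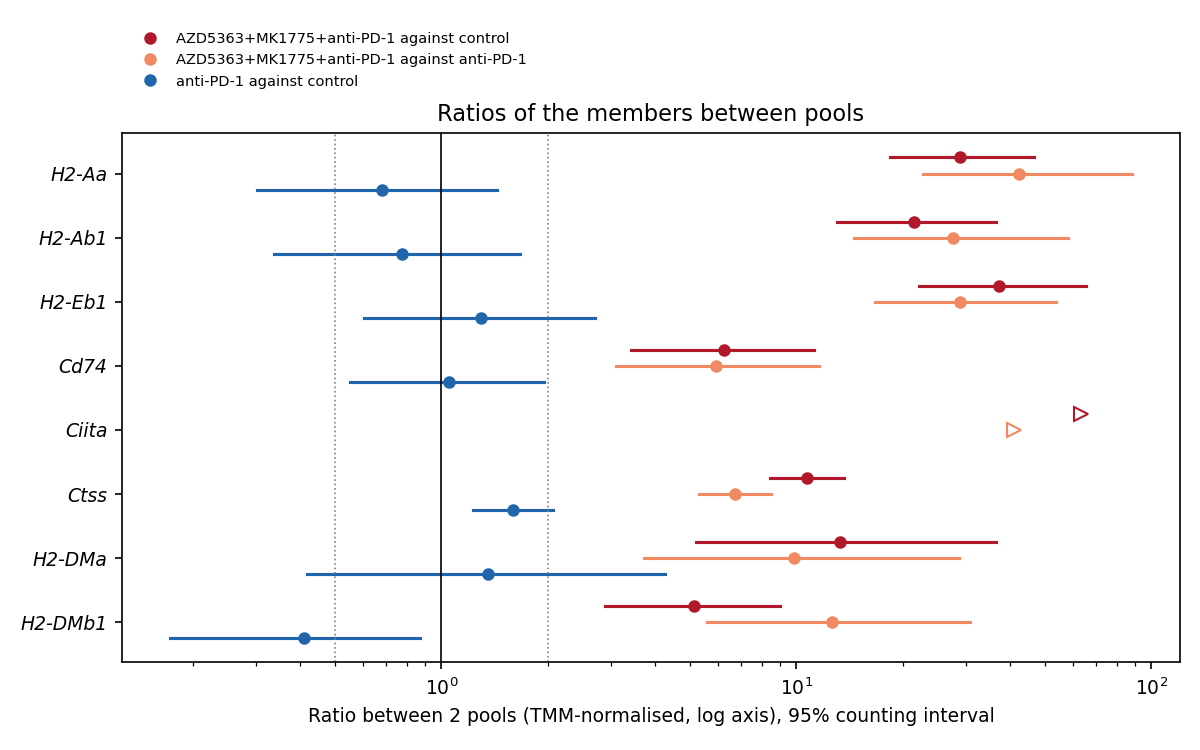
TMM-scaled ratios (log axis) of each class II gene in AZD5363+MK1775+anti-PD-1 against control, AZD5363+MK1775+anti-PD-1 against anti-PD-1, and anti-PD-1 against control. Bars are 95% exact conditional intervals, open triangles are lower bounds for Ciita, and dotted lines mark 2-fold in either direction; the triple-agent ratios lie right of the upper line, the nearest being 5.14, while those of anti-PD-1 against control lie between 0.409 and 1.59.

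Anti-PD-1 without inhibitors gave no call for any member. In anti-PD-1 against control, 0 of 5 members passed the rule, where 2.69% of all genes were called higher and 2.14% lower. H2-Aa had a ratio of 0.680 (0.302 to 1.43), H2-Ab1 0.772 (0.338 to 1.66), H2-Eb1 1.29 (0.604 to 2.70) and Cd74 1.05 (0.553 to 1.94). Each of these 4 intervals spans 1. Ctss had a ratio of 1.59 (1.23 to 2.06) and H2-DMb1 one of 0.409 (0.172 to 0.870), so they left 1 on opposite sides without passing the rule. The summed ratio was 1.19 (0.985 to 1.44), and 0.824 (0.610 to 1.10) without Ctss.

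For the inhibitors without anti-PD-1 the depth decides. At the control pool's share, 4.64 counts over the 8 genes would have been expected in the AZD5363+MK1775 pool, and 0 were found. The sum there was at least 1.55-fold lower than in control, from 0 against 258 counts, and no single member allowed a bound beyond 1. With counting error on both sides, the 95% upper limit of the ratio of the sum to control was 0.801. In AZD5363+MK1775 against control 0 of 5 members passed the rule, where 1.65% of all genes were called higher and 1.28% lower, and the median log2 ratio over all genes was -1.03. Against this AZD5363+MK1775 pool, the triple-agent pool had a sum at least 22.9-fold higher, from 503 against 0 counts. Of 7 members with enough counts 4 were called higher, where 11.1% of all genes were called higher and 3.72% lower. These were Ctss (at least 7.88-fold), H2-Aa (at least 4.33-fold), H2-Eb1 (at least 4.01-fold) and H2-Ab1 (at least 2.82-fold). Their 95% lower limits, in that order, were 6.34, 3.45, 3.19 and 2.23. Under library totals the H2-Ab1 call was lost and the bounds were 4.54 for Ctss, 2.49 for H2-Aa, 2.31 for H2-Eb1 and 1.63 for H2-Ab1, with 3 of 7 members called higher where 2.72% of all genes were. For Ciita, Cd74 and H2-DMb1 the bounds were 1.14, 1.05 and 1.05-fold, but their 95% lower limits were 0.859, 0.785 and 0.785. These limits lie below 1, so the shallow pool could not show a difference for these genes. In this pair the median over all genes was itself 1.10 on the log2 scale, above 0.

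The KS100 pools held too few class II counts for a single gene to be read. The KS100 pool had 1 count where 5.59 were expected at control's share, and the KS100+anti-PD-1 pool had 5 where 2.91 were expected. In KS100 against control 0 of 5 members passed the rule, where 4.50% of genes were called higher and 1.86% lower, and the summed ratio was 0.179 (0.00451 to 1.01). In KS100+anti-PD-1 against control 0 of 5 passed, where 4.59% were called higher and 2.86% lower, and the summed ratio was 1.72 (0.552 to 4.06). Both intervals include 1. KS100+anti-PD-1 against KS100 rested on 5 against 1 counts, with a summed ratio of 9.59 (1.07 to 454) and no member with enough counts for the rule. The AZD5363+MK1775+anti-PD-1 pool was above the KS100+anti-PD-1 pool in the sum by 8.63-fold (3.68 to 26.7). In that pair Ctss alone of 7 members was called, at 14.8-fold higher (2.63 to 589.8), where 7.49% of genes were called higher and 1.00% lower. H2-Eb1 had a ratio of 7.55 (1.32 to 302) and H2-Aa one of 4.08 (1.10 to 34.1), and that of Ciita, 2.15 (0.351 to 88.1), spans 1.

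The make-up of the class II counts differed between pools, a comparison that needs no scaling. The 3 chain genes had 245 counts in the triple-agent pool, 37 in anti-PD-1 and 65 in control. Per chain count there were 0.0939 Cd74 counts in the triple-agent pool against 0.431 in control, so that the ratio of the 2 was 0.218 (0.112 to 0.423). For H2-DMb1 it was 0.0939 against 0.523 (ratio 0.179, 0.0944 to 0.340), and for Ctss 0.706 against 1.89 (ratio 0.373, 0.256 to 0.542). Cd74, H2-DMb1 and Ctss thus had fewer counts per chain count in the triple-agent pool than in control, while for H2-DMa the ratio of 0.464 (0.173 to 1.34) spans 1. Within the chains the balance did not separate the pools. H2-Aa per H2-Ab1 was 1.53 against 1.14 (ratio 1.35, 0.661 to 2.73) and H2-Eb1 per H2-Ab1 was 1.42 against 0.818 (ratio 1.73, 0.810 to 3.74). Ctss made up 34.4% (30.2 to 38.7) of class II counts in the triple-agent pool, 63.8% (56.7 to 70.5) in anti-PD-1 and 47.7% (41.4 to 54.0) in control, where the bounds are exact binomial 95% limits. H2-Aa made up 18.9% (15.6 to 22.6), 5.53% (2.79 to 9.68) and 9.69% (6.37 to 14.0) in the triple-agent, anti-PD-1 and control pools.

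**Figure D3:**
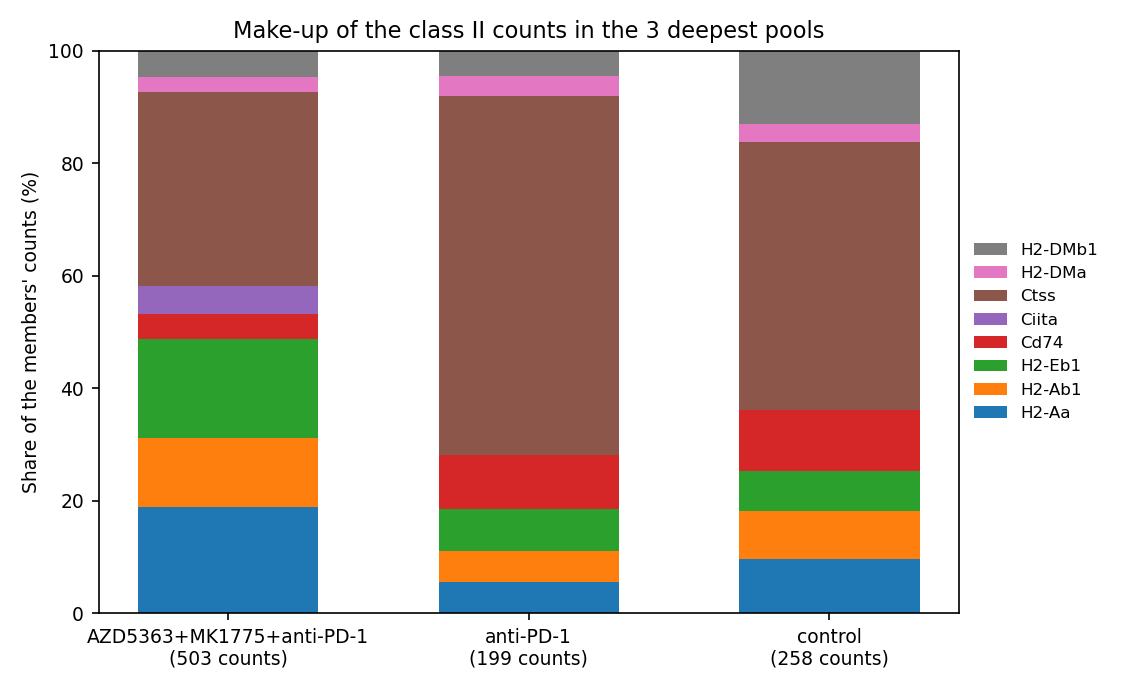
Share of the summed class II counts (percent) taken by each of the 8 genes in the triple-agent, anti-PD-1 and control pools, which held 503, 199 and 258 such counts. The H2-Aa, H2-Ab1 and H2-Eb1 segments are wider in the triple-agent pool, and Ctss is the widest segment in all 3.

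An additive edgeR quasi-likelihood fit with the inhibitor arm and the antibody as terms was the one test the design allowed, with 2 residual degrees of freedom and any interaction left in the residual. The filter on low counts kept 4912 genes and 2 members, H2-Aa and Ctss. Neither reached a Benjamini-Hochberg adjusted p under 0.05 in any effect, where 1.28% of genes did so as higher and 0.0611% as lower for AZD5363+MK1775, 0.102% and 0.0407% for anti-PD-1, and 7.21% and 0.489% for KS100. For the AZD5363+MK1775 effect H2-Aa had a log2 change of 3.57 (SE 1.17, unadjusted p 0.00223, edgeR adjusted p 0.107), with its counts higher in 1 of 2 AZD5363+MK1775 pools. Ctss had a log2 change of 1.39 (SE 0.99, edgeR adjusted p 0.786). For the anti-PD-1 effect the log2 changes were 1.52 (SE 0.94) for H2-Aa and 1.97 (SE 0.87, unadjusted p 0.0244) for Ctss, both with an edgeR adjusted p of 0.999. For KS100 they were 1.26 (SE 1.58, edgeR adjusted p 0.693) for H2-Aa and -1.46 (SE 1.31, edgeR adjusted p 0.568) for Ctss. At an unadjusted p under 0.05 the fit gave 1 of the 2 members for each of the AZD5363+MK1775 and anti-PD-1 effects and 0 for KS100, where 8.61%, 2.12% and 19.0% of all genes fitted did so, and DESeq2 called 0 after adjustment in all 3. The fit averages over the AZD5363+MK1775 pool at 0 and the triple-agent pool, and without the AZD5363+MK1775 pool it called 4 of 8 fitted members higher for the AZD5363+MK1775 effect, where 2.33% of the 8317 genes fitted were called higher and 0.108% lower.

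The route that turns Ciita on was partly counted. Interferon-gamma signals through its receptor and JAK kinases and raises IRF1, which acts on a Ciita promoter. Of 8 genes of this route, 5 had enough counts in AZD5363+MK1775+anti-PD-1 against control, and 1 was called higher and 0 lower, with a median log2 ratio of 0.71. Over all genes tested in that pair 14.9% were called higher and 8.02% lower, so 1 of 5 is close to that share. Irf1 had 192 counts in the triple-agent pool against 144 in control, a ratio of 10.1 (8.12 to 12.7). It also passed the rule against anti-PD-1, at 7.38-fold higher (5.87 to 9.30). Jak1 and the receptor gene Ifngr1 had ratios of 1.66 (1.26 to 2.17) and 1.66 (1.02 to 2.60) and did not pass. Ifng itself had 0 counts in the triple-agent pool and 1 in control.

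Among the 10 factors that build the complex on class II promoters, such as the RFX and NF-Y subunits, 4 of 9 tested were called higher in AZD5363+MK1775+anti-PD-1 against control and 1 lower, with a median log2 ratio of 0.65. The shares over all genes in that pair were 14.9% higher and 8.02% lower. Ep300, a histone acetyltransferase, had a ratio of 3.11 (2.11 to 4.52). Kat2b, another acetyltransferase, had 2.83 (1.93 to 4.09), and Creb1, a CREB family factor, 2.15 (1.58 to 2.90). Scaled by library totals, 0 of the 9 were called higher, so these calls depend on the scaling. Nfyb, an NF-Y subunit, had a ratio of 1.59 (0.886 to 2.71). Rfxap, an RFX subunit named after its values were seen, was the 1 called lower, with 1 count in the triple-agent pool against 69 in control (ratio 0.110, 0.00275 to 0.634), and the lower call also stood under library totals.

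As a list, other genes of class II loading were not higher in the triple-agent pool than in control. Their summed ratio was 0.701 (0.604 to 0.810) under TMM. Under library totals it was 0.434 (0.374 to 0.501), with 4 genes called lower. Of 13 such genes, 6 had enough counts in AZD5363+MK1775+anti-PD-1 against control, where 0 were called higher and 2 lower, with a median log2 ratio of -1.04. The shares over all genes in that pair were 14.9% higher and 8.02% lower. The lysosomal proteases Ctsb and Ctsd had ratios of 0.944 (0.713 to 1.23) and 0.990 (0.766 to 1.26). Ctsl, which can process the invariant chain in thymic epithelium, had 28 against 503 counts, a ratio of 0.423 (0.278 to 0.619). March8, a ubiquitin ligase that can remove class II from the surface, had 14 against 338 counts, a ratio of 0.315 (0.170 to 0.535). In anti-PD-1 against control 1 of the 6 tested was called higher, where 2.69% of all genes were. It was Lgmn (legumain, an endosomal protease, named after its values were seen), with 264 against 195 counts and a ratio of 2.09 (1.73 to 2.53). In AZD5363+MK1775+anti-PD-1 against control the ratio of Ctss differed from those of the 3 other cathepsins in this list, whose intervals all lie below its own. Of the genes for less common class II chains, named after their values were seen, H2-Oa and H2-Ob were at 0 in all 6 pools and H2-Eb2 had 1 count in each of AZD5363+MK1775+anti-PD-1 and KS100+anti-PD-1.

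The class I pathway, which presents cytosolic peptide to CD8+ T cells, was also higher in the triple-agent pool. Against control 9 of 9 tested genes were called higher, where 14.9% of all genes were. Psmb8, named after its values were seen, had enough counts only in the triple-agent pool (72 against 6), so its call was fixed on entry. The counts of the pathway summed to 6.65 times those of control after scaling (6.25 to 7.08), and its median log2 ratio was 3.33. Its H2-K1 and H2-D1 have close paralogues, so their single values are uncertain. The class II chains were higher relative to class I as well. There were 0.132 chain counts per class I count in the triple-agent pool and 0.0308 in control, a ratio of 4.31 (3.24 to 5.79). Of 8 co-stimulatory and PD-1 ligand genes none had enough counts for the rule, and their sum was 27 in the triple-agent pool against 23 in control (ratio 8.92, 4.92 to 16.3). Cd274, which encodes the PD-1 ligand PD-L1, gave 19 of the 27, against 6 of the 23 in control. Icosl gave 2 against 15 and Cd86 gave 1 against 2, so the ratio of the sum rests mostly on Cd274.

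Markers of cells that carry class II moved with the members in part. Macrophage and monocyte markers, 15 genes of which 14 had a count in the triple-agent pool, summed to 210 counts there, 4 in KS100+anti-PD-1, 0 in AZD5363+MK1775, 10 in KS100, 362 in anti-PD-1 and 208 in control. Their summed ratio was 7.67 (6.30 to 9.34) in AZD5363+MK1775+anti-PD-1 against control, with 3 of 4 tested called higher, and 2.69 (2.26 to 3.20) in anti-PD-1 against control, with 2 of 5 called higher. Over all genes the rule called 14.9% higher in the first of these pairs and 2.69% in the second. C1qa, a complement subunit made by tissue macrophages, had 82 counts in the triple-agent pool, 127 in anti-PD-1 and 54 in control, with ratios to control of 11.5 (8.08 to 16.6) in the triple-agent pool and 3.63 (2.62 to 5.09) in anti-PD-1. Lyz2, lysozyme of myeloid cells, did not follow, with 4 counts in the triple-agent pool against 43 in control (ratio 0.707, 0.184 to 1.94). Ptprc, the pan-leukocyte gene for CD45 and named after its values were seen, had 40 counts in the triple-agent pool against 1 in control (ratio 304, 51.5 to 12298). It had enough counts only in the triple-agent pool, so its call was fixed on entry to the rule. The class II chains did not follow the marker sum across the vehicle pools. There were 1.17 chain counts per macrophage marker count in the triple-agent pool, 0.102 in anti-PD-1 and 0.312 in control. The ratio was 3.73 (2.64 to 5.30) for the triple-agent pool against control and 0.327 (0.205 to 0.517) for anti-PD-1 against control. The part of these markers in the class II result was not tested.

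Dendritic cell markers, 11 genes, summed to 78 counts in the triple-agent pool against 358 in control (ratio 1.66, 1.28 to 2.12, but 1.02 under library totals), with 0 of 3 tested called. Cst3, which many cells express, gave 68 of the 78 counts in the triple-agent pool. Of the other 10, named in full after their values were seen, Batf3 had 4 counts there against 1 in control (ratio 30.4, 3.01 to 1496), Zbtb46 3 against 22 (1.04, 0.199 to 3.45), Itgax (CD11c) 1 against 3, Clec9a 1 against 0 and Fscn1 1 against 31. Flt3, Xcr1, Ccr7, Cd209a and Ccl22 had 0 in the triple-agent pool. A count of 0 there allows up to 8.86 CPM. The 7 B cell markers summed to 1 count in the triple-agent pool, 3 in anti-PD-1 and 1 in control. The part of these markers in the class II result was not tested either. T cell markers, 9 genes with none tested, summed to 29 counts in the triple-agent pool, 8 in anti-PD-1 and 11 in control. The interval of their ratio to control was 9.71 to 44.4, with Lck at 11 counts and Trbc2 at 7 in the triple-agent pool. Lck also gave 8 of the 11 counts in control and 6 of the 8 in anti-PD-1. Cd4, named after its values were seen, had 0 counts in the triple-agent pool. Endothelial markers had a summed ratio of 0.978 (0.706 to 1.33) to control and melanocyte markers one of 0.782 (0.755 to 0.810). Under library totals these were 0.606 (0.437 to 0.822), with 1 endothelial gene called lower, and 0.484 (0.468 to 0.501), with 4 melanocyte genes called lower in place of 2. Under TMM, 0.782 for the tumour cells' markers stands beside 14.8 for class II, and whether the class II RNA came from tumour or host cells was not tested.

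**Figure D4:**
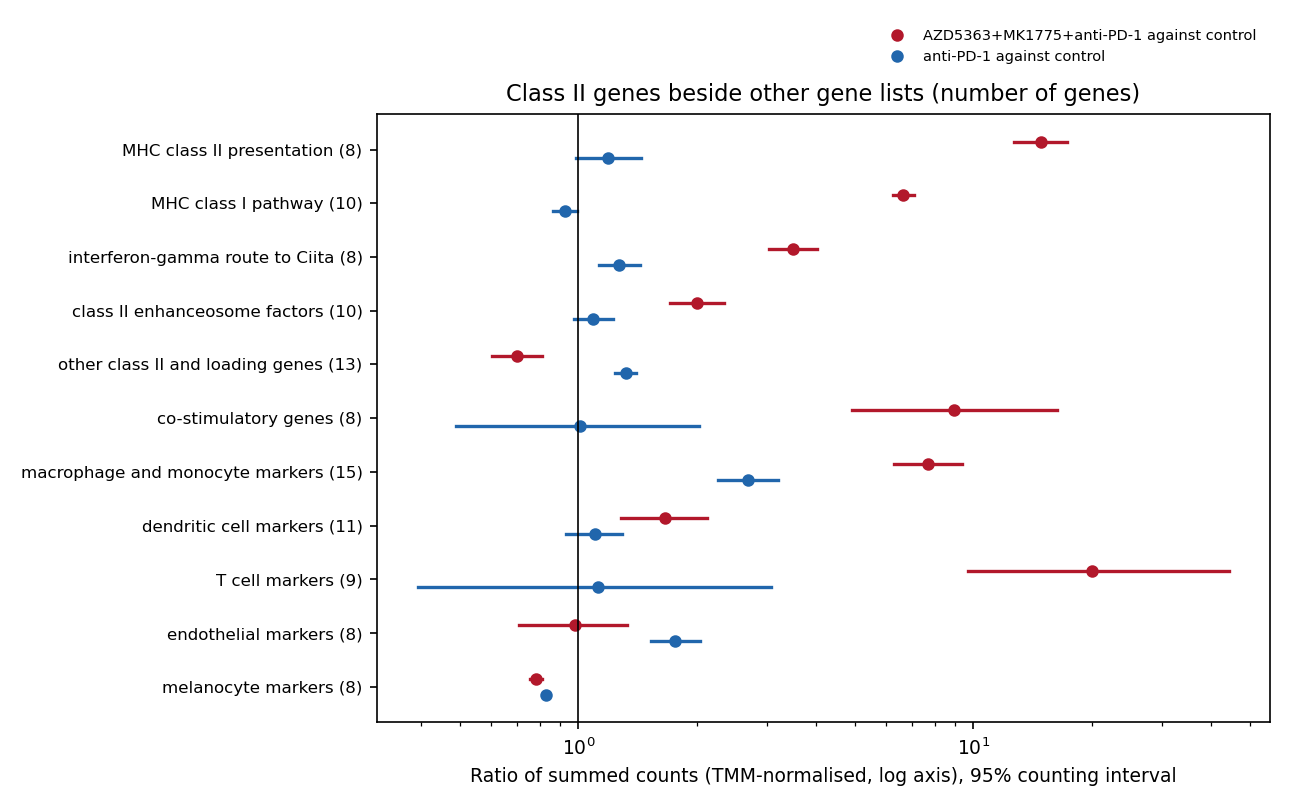
Summed TMM-scaled ratios (log axis) of the class II members and 10 other gene lists in AZD5363+MK1775+anti-PD-1 against control and in anti-PD-1 against control, with 95% exact conditional intervals for counting error. The members are at 14.8 and 1.19, the macrophage and monocyte markers at 7.67 and 2.69, and the other class II and loading genes at 0.701 and 1.32.

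The genes whose levels over the 6 pools were most like the summed members were ranked by Pearson r on log2(TMM-scaled CPM + 20), among 3194 genes with at least 200 counts. The 10 with the highest r were Smc3 (0.988), Stat3 (0.986), Eid1 (0.983), Lap3, Trip12, Hnrnpr, Ccnt2, Cab39, Cse1l and Pank3 (0.971). On that scale, before the logarithm, the summed members were at 2502 CPM in the triple-agent pool, 289.8 in KS100+anti-PD-1, 0 in AZD5363+MK1775, 30.2 in KS100, 201 in anti-PD-1 and 169 in control. Stat3, for example, was at 890.3 CPM in the triple-agent pool, 406 in KS100+anti-PD-1, 182 in AZD5363+MK1775, 242 in KS100, 418 in anti-PD-1 and 311 in control. Both were highest in the triple-agent pool, and the KS100+anti-PD-1 values rest on 5 counts for the members and 7 for Stat3. None of the 10 genes had more than 8 counts in the AZD5363+MK1775, KS100 or KS100+anti-PD-1 pools. Smc3, with the highest r, had 1, 2 and 2 counts in these pools. Each r thus rests in part on a few counts.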

How the data were processed

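Libraries of 3′ ends (QuantSeq FWD, oligo-dT priming) were sequenced for 151 cycles on a MiSeq, per the labels' protocols. The deposited table holds raw read counts per Ensembl gene for 6 pools. The submitters' processing notes name bcl2fastq, HISAT2 2.1.0, HTSeq and GRCm38. Which annotation release and strand setting were used is not given in the sources used here. Of 43721 rows, 92 were spike-ins with 0 counts and were left out. GENCODE M21 gave symbols for 42462 of 43629 genes, and RefSeq gave the promoter sequences.

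Counts were scaled by TMM (edgeR 4.0.16, R 4.3.3) after edgeR's default low-count filter. Pool ratios carry 95% exact conditional intervals, single levels 95% exact Poisson intervals, and a count of 0 is limited by 3 counts. The additive fit used edgeR's quasi-likelihood test with Benjamini-Hochberg adjustment over all 4912 fitted genes. Pools of other treatments serve as its replicates, so its p-values measure the spread between these pools alone. List medians use a prior count of 2 scaled to pool size. The scripts were tested on simulated data. DESeq2 1.42.0, other scalings, filters and thresholds, and leaving out each pool were alternatives.

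The members and gene lists were chosen with earlier results of these data known. All members are given; from every other list the genes named are up to 4 with most counts over the 6 pools, and any named outside this rule are marked as such. Ifng, H2-DMb2, Dexi, Brd2 and Mir5107 were named for their relation to members. 1 gene is not reported here and was left out of the gene lists.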

Additional observations from a re-analysis of the deposited data

Results flagged for a closer look

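By point estimate alone, anti-PD-1 went with opposite directions in 2 inhibitor arms for 3 members. In AZD5363+MK1775+anti-PD-1 against AZD5363+MK1775 the counts were 95 against 0 for H2-Aa, 62 against 0 for H2-Ab1 and 23 against 0 for H2-DMb1. In anti-PD-1 against control the ratios were below 1, at 0.680 (0.302 to 1.43) for H2-Aa, 0.772 (0.338 to 1.66) for H2-Ab1 and 0.409 (0.172 to 0.870) for H2-DMb1. Each side rests on 1 pool per treatment, and the difference between the arms was not tested. In anti-PD-1 against control the intervals of H2-Aa and H2-Ab1 span 1. Against the AZD5363+MK1775 pool, with its 26639 counts, the 95% lower limit of H2-DMb1 was 0.785, so a higher level is not shown for it.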

How the results depend on the processing

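No ratio of a member or of their sum crossed 1 under any alternative scaling that gave a value. Leaving out Ctss took the sum in anti-PD-1 against control from 1.19 (0.985 to 1.44) to 0.824 (0.610 to 1.10), and both intervals span 1. The other lists were rescaled only in AZD5363+MK1775+anti-PD-1 against control, AZD5363+MK1775+anti-PD-1 against anti-PD-1, and anti-PD-1 against control. Among these, 2 summed ratios crossed 1, both under library totals in AZD5363+MK1775+anti-PD-1 against anti-PD-1. They were 0.909 beside 1.51 under TMM for dendritic cell markers and 0.987 beside 1.64 for B cell markers. Whether list ratios cross 1 in the remaining pairs was not examined. The 7 members called higher in AZD5363+MK1775+anti-PD-1 against control and against anti-PD-1 were called under each scaling. The summed ratios moved with the scaling: under library totals they were 9.17 against control, 7.48 against anti-PD-1 and at least 13.2 against AZD5363+MK1775, beside 14.8, 12.4 and at least 22.9 under TMM. That last bound was 16.7 under totals of nuclear protein-coding genes, and 16.9 under totals without mitochondrial genes and Gm42418, an alternative chosen after seeing the data. Library totals shift the median of all genes in AZD5363+MK1775+anti-PD-1 against control to -0.66 (log2), beside -0.01 under TMM. Asking only that the interval lie beyond 1-fold gave 1 member (H2-DMb1, lower) in place of 0 in anti-PD-1 against control, where 4.13% of all genes were then lower. It gave 4 of 7 in place of 1 in AZD5363+MK1775+anti-PD-1 against KS100+anti-PD-1, where 16.9% of all genes were then higher. With no minimum count, 1 member was called in KS100+anti-PD-1 against control (Ciita, 1 count against 0), where 27.4% of all genes were then higher.

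In the additive edgeR fit, the AZD5363+MK1775 effect called 1 member with no filter (Ciita, log2 change 7.49, edgeR adjusted p 0.0276), where 0.264% of all genes were higher. Leaving out each pool in turn gave 0 members for the anti-PD-1 and KS100 effects, with 0 to 8 members fitted. For the AZD5363+MK1775 effect it also gave 0, except without the AZD5363+MK1775 pool. The combination pool is then the only one of its arm and is assumed to vary like the others, so the calls of that fit are not read. The members it called had log2 changes of 4.92 (H2-Aa), 4.61 (H2-Ab1), 4.57 (H2-Eb1) and 7.95 (Ciita). Without the AZD5363+MK1775+anti-PD-1 pool no member passed the filter. Under some scalings Cd74, Ciita and H2-DMb1 gave no bound beyond 1-fold against AZD5363+MK1775. The cause of these changes was not tested. No paired analysis was possible because each treatment had 1 pool and the labels carry no shared replicate number.

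Depth limits the AZD5363+MK1775, KS100 and KS100+anti-PD-1 pools, where 3 counts are worth 113, 67.0 and 118 CPM, above the level of most members in the vehicle pools.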
